A study of Mus musculus with 12 samples.

Results

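RNA from livers that lack both haptoglobin and hemopexin (HpHx-null) was compared with wild-type liver RNA on 4 of the 12 two-colour cDNA arrays of the series, chosen by their sample titles. On each array a pool of HpHx-null liver met a reference pool of wild-type liver. Each pool held livers of at least 5 adult mice, perfused with PBS, and the wild-type and null mice were littermates bred from Hp+/-Hx+/- F1 mice in a mixed C57/BLJ6 X 129Sv background. The other 8 arrays carry pools of livers without hemopexin alone (Hx-null, 4 arrays) or without haptoglobin alone (Hp-null, 4 arrays) against the same kind of reference. They enter the model because they share the structure of the arrays, described below. Nothing in the labels points to a second pool of any genotype, so the 4 arrays were treated as repeated measurements of 1 pair of pools. Each p-value therefore sets 2 pools against the spread between arrays, and the spread between mice was not measured.

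Haptoglobin is a plasma protein that binds hemoglobin released from red cells, and the complex is cleared by macrophages through the receptor CD163. Hemopexin binds free heme once it has left hemoglobin and carries it to the liver, where heme is broken down by heme oxygenase and the iron is stored in ferritin or exported. Both proteins are made by hepatocytes. The double null removes both steps, and the comparison asks which liver transcripts differ when neither protein is present.

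Values are log2 ratios with their deposited sign, after each array was centred on its median. Gene names rest on an inferred, reversed numbering of the spots, so that the numbers of a value and its annotation add up to 31201. Of 3476 pairs of clones of 1 gene, 205 had both clones measured by this numbering and 63 by the direct one. No spot of the annotation names a deleted gene (0 spots), so the genotype labels could not be checked against their targets. Albumin, a defining hepatocyte product, held a value on 4 of 4 HpHx-null arrays. In pooled tissue, fewer cells of a type and less RNA per cell cannot be told apart.

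Which way the ratios run could not be settled. Replicates 1 and 2 of HpHx-null carry the same labelled dyes and correlated at -0.63 over spots, and replicates 3 and 4, with the dyes exchanged, at -0.23. The first component of all 12 arrays held 69.4% of the sum of squares and put replicates 1 and 4 of HpHx-null in a first block of 6 arrays and replicates 2 and 3 in a second. Replicates 1 and 4 correlated at 0.85, and replicates 2 and 3 at 0.64. This block was modelled as a term for each gene, and it is large: the median size of the block difference was 0.48 over the features tested, against 0.08 for the HpHx-null ratio. Replicate 3 had the loading nearest to 0 of the 4 on the first component (-0.12) and held the fewest values (3009 spots, against 3416 to 3934 on the other HpHx-null arrays). "Positive" and "negative" below describe the sign of the deposited ratio. Whether a positive sign stands for more RNA in the HpHx-null pool depends on which channel the deposited values have on top. It is also not stated whether the same pool is on top on all 4 arrays. If the channel on top follows the dye, the mean deposited ratio over exchanged dyes is not a difference between pools. The calls below are therefore calls on the deposited ratio.

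On the HpHx-null arrays, 92 features had a fitted deposited ratio that differed from 0, and nearly all were positive: 87 were positive and 5 negative. A feature is a named gene, with its clones averaged, or a clone without a single symbol. The positive side was led by Serpina1e, a protease inhibitor secreted by hepatocytes, and held 3 enzymes of methionine and cysteine metabolism, catalase and the heme-binding protein Hebp1. The negative side held the glutathione transferase Gstp1, the peroxisomal hydrolase Nudt7, the splicing factor Prpf38b, the ferritin light chain Ftl1 and 1 clone without a symbol. Ratios past the threshold ran from 0.32 to 1.37 on the positive side and from -0.92 to -0.35 on the negative side, so the sizes lay between 1.24-fold and 2.58-fold, and 63 of the 92 exceeded 1.5-fold.

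The test was limma with Benjamini-Hochberg adjustment at 0.05 over all 1711 features measured on at least 3 HpHx-null arrays. Of these, 5.08% were called positive, 0.292% negative and 5.38% in either direction. Of the 92 features, 42 carried 1 gene symbol, 38 of them positive. With the labelled dye in place of the array block limma called 0 features (99 had an unadjusted p under 0.05), and without moderation of the variance 0 passed (245 with such a p). Replicate 3 bore on the count: left without it, 33 of 1868 features passed, with at least 2 HpHx-null arrays required. All 92 kept their sign, which was fixed for the called features without a value on replicate 3.

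**Figure D1:**
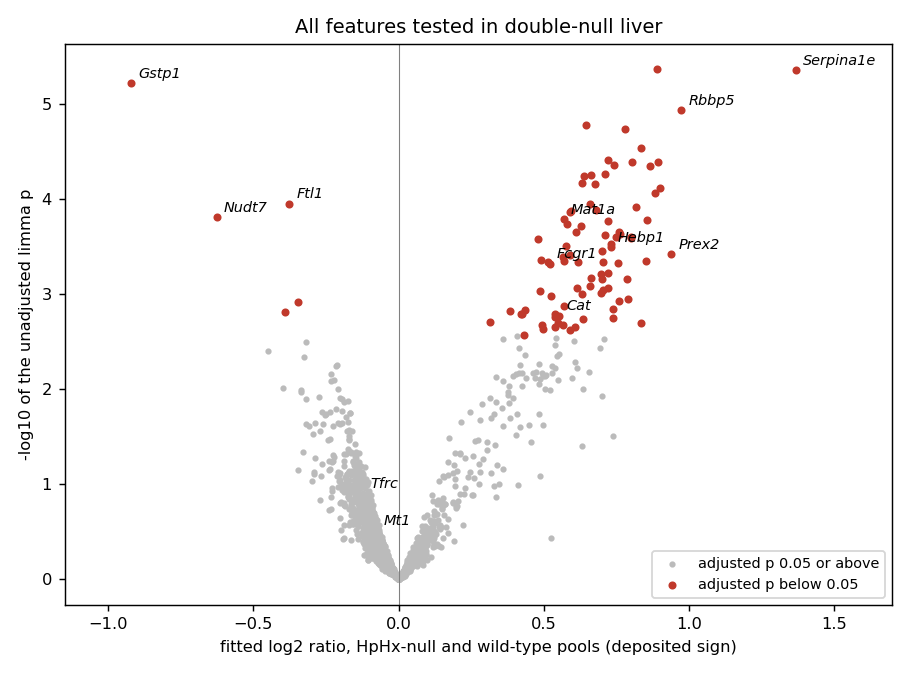
Each point is 1 of the 1711 features tested in HpHx-null liver, with the fitted log2 ratio on the horizontal axis (deposited sign) and minus log10 of the unadjusted limma p on the vertical axis. Red points passed an adjusted p of 0.05 (87 to the right and 5 to the left of 0), and most points lie close to 0, with a median of -0.03.

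Across the 87 positive features, the median value was 0.70 on replicate 1, 0.31 on replicate 2, 1.04 on replicate 3 and 0.69 on replicate 4. With the block difference taken out, these medians were 0.55, 0.46, 1.16 and 0.54. Replicate 3 thus stood above the other 3 arrays for this set. It held a value for 72 of the 87 features and was the highest array in 67 of them once the block was taken out. Without replicate 3 the median fitted ratio of the 87 was 0.50, against 0.66 with it, although the 15 without a value there could not change. Of the 31 called genes named by the rule, 15 then passed. Those that did not were Prex2, Npc1, Anapc7, Anapc4, Polr2h, Pip4p1, Tnk2, Taf1d, Mtfr1l, Prpf38b, Cat, Fcgr1, Glud1, Bhmt, Bche and Mat1a. Of these, Anapc4, Cat, Glud1 and Bhmt held no value on replicate 3, and their ratios were the same in both fits. For them only the features tested and the variance moderation differed. On the measured arrays themselves, 63 of the 87 were positive on every HpHx-null array that held a value, as were 109 of all 1711 features tested. The other 24 had a negative value on some array, and 16 of the 87 had a block difference above 1.

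**Figure D2:**
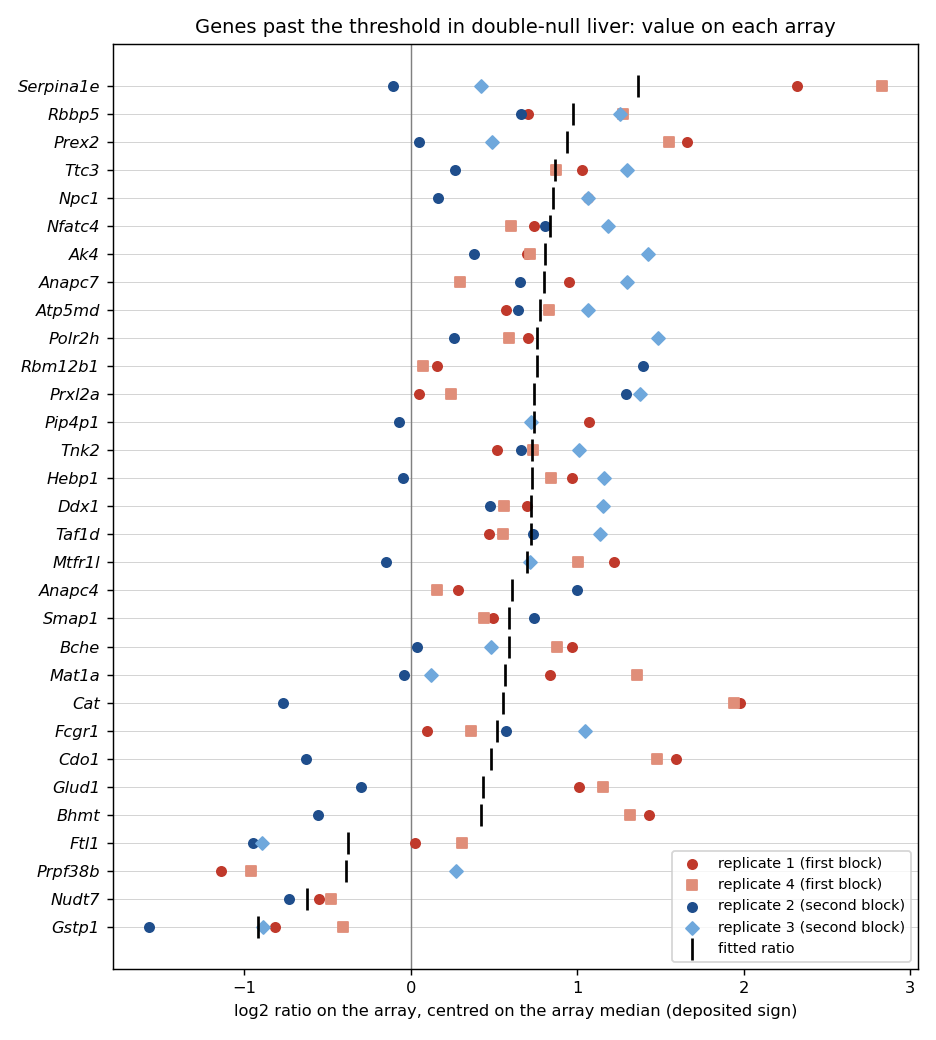
Each row is a gene named by the rule that passed the threshold, and the 4 symbols are its centred log2 ratios on the 4 HpHx-null arrays (red, replicates 1 and 4 of the first block; blue, replicates 2 and 3 of the second). The black bar is the fitted ratio. Replicates 1 and 4 lie far to the right of replicate 2 for Serpina1e, Cat, Cdo1 and Bhmt, whereas Nfatc4, Atp5md and Ddx1 are positive on all 4 arrays, with replicate 3 highest.

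Among proteins that the liver secretes, 6 of 69 listed genes were tested, 2 passed and all 6 fitted ratios were positive, with a median of 0.38 against -0.03 over all features. Over all 1711 features tested, 5.38% passed and 37.1% had a positive ratio. Serpina1e, of the alpha-1-antitrypsin family of protease inhibitors, stood at 2.32, -0.10, 0.42 and 2.83 on replicates 1 to 4. The 2 arrays of the first block were far above the other 2, and replicate 2 fell just below 0. The fitted ratio was 1.37 (SE 0.18, adjusted p = 0.00346), a 2.58-fold size, and 1.21 without replicate 3 (adjusted p = 0.0184). Its block difference, 2.72, was larger than the ratio itself. Several near-identical Serpina1 genes lie side by side in the mouse genome, so a cDNA clone may detect more than 1 of them and the name is uncertain to that extent.

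The promoter of Serpina1e is shown because this gene leads the positive side (RefSeq, GRCm38.p6, chr12:103956848-103957147, minus strand, 250 bases before to 50 after the start). Capitals mark the letters GTTAAT, the core letters bound by the hepatocyte factor HNF1, searched on both strands; 7.10% of 32851 promoters of this length hold it.
Serpina1e: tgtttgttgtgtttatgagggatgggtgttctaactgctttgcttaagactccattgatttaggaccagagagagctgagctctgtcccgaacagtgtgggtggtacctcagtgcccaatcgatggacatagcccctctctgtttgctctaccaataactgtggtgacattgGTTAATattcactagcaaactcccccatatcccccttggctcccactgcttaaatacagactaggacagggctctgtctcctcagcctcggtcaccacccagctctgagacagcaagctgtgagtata

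Bche, the plasma enzyme butyrylcholinesterase, read 0.97, 0.04, 0.48 and 0.88 on the 4 arrays, all above 0. Its fitted ratio of 0.59 (SE 0.16, adjusted p = 0.0446) was 0.42 without replicate 3 (adjusted p = 0.294). The other 4 secreted products did not pass. Albumin, the main plasma protein, had values of 1.45, -0.25, -0.07 and 0.51 and a fitted ratio of 0.41 (SE 0.23, adjusted p = 0.532). Its first-block arrays were positive and its second-block arrays negative. The selenium carrier Selenop had a fitted ratio of 0.36 (SE 0.13, adjusted p = 0.167), the growth factor Igf1 0.33 (SE 0.19, adjusted p = 0.539) on 3 arrays, and transthyretin (Ttr), a carrier of thyroid hormone, 0.05 (SE 0.13, adjusted p = 0.934).

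Among enzymes that handle methionine, homocysteine and cysteine, 3 of 4 tested genes passed, all positive, and the list's median ratio was 0.45. Over all features tested, 5.38% passed. This list was drawn up with these calls already known, so the count is a description. Mat1a, which makes S-adenosylmethionine in hepatocytes, read 0.84, -0.04, 0.12 and 1.36. The first-block arrays were clearly higher, and replicate 2 was near 0. The fitted ratio was 0.57 (SE 0.10, adjusted p = 0.00999) and changed little without replicate 3 (0.54, adjusted p = 0.0566), although the call was lost.

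Cdo1, cysteine dioxygenase, which commits cysteine to taurine and sulfate, held no value on replicate 3 and read 1.59, -0.63 and 1.48 on replicates 1, 2 and 4. Replicate 2 had the opposite sign to the other arrays. The fit gave 0.48 (SE 0.09, adjusted p = 0.0117) with a block difference of 2.0. Bhmt, which remethylates homocysteine with betaine, showed the same layout, with 1.43, -0.56 and 1.32 on replicates 1, 2 and 4 and no value on replicate 3. Its fitted ratio was 0.42 (SE 0.10, adjusted p = 0.0358). It did not pass without replicate 3 (adjusted p = 0.07), in a fit where its own values were the same. Of the 3 calls in this list, only that of Cdo1 was kept in that fit (adjusted p = 0.0228). Shmt2, the mitochondrial serine hydroxymethyltransferase, stood at -0.03 (SE 0.07, adjusted p = 0.927). In each of the 3 called genes the block difference, from 1.02 to 2.0, exceeded the ratio, so the ratio is what is left after a larger array effect is removed.

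Glud1, glutamate dehydrogenase, was 1 of 3 tested genes of amino acid breakdown and read 1.01, -0.30 and 1.16 on replicates 1, 2 and 4. Its ratio of 0.43 (SE 0.11, adjusted p = 0.0498) was the last inside the threshold. Tdo2, which opens the ring of tryptophan, stood at 0.19 (SE 0.10, adjusted p = 0.499). The features nearest to the threshold were Glud1 and then Bche (adjusted p = 0.0446) inside, and Cxcr4 (0.41, adjusted p = 0.0505) and Strada (0.71, adjusted p = 0.0527) outside; the latter pair is named after the values were seen.

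Of 8 tested antioxidant genes, Gstp1 passed on the negative side and Cat on the positive side, 4 ratios were positive and 4 negative, and the median of -0.05 lay near that of all features (-0.03). Gstp1, the pi-class glutathione transferase, which joins glutathione to electrophiles, read -0.82, -1.57, -0.89 and -0.41. All 4 arrays were negative, with replicate 2 lowest. The fitted ratio was -0.92 (SE 0.13, adjusted p = 0.00346), a 1.89-fold size and the most negative of all features tested that passed, and without replicate 3 it was -1.12 (adjusted p = 0.000218). Gstp1 has a close neighbour gene of similar sequence in the mouse, so the clone may detect both.

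The promoter of Gstp1 is printed because this gene leads the negative side (RefSeq, GRCm38.p6, chr19:4037863-4038162, minus strand). Capitals mark TGAGTCA, the letters of an AP-1 site, present in 5.2% of the same 32851 promoters on either strand. Of the antioxidant response element, only the core form TGACNNNGC was searched, present in 12.4% of them. That form does not occur in this window or in that of Serpina1e. Other forms of the element were not searched, so its absence from either window was not tested.
Gstp1: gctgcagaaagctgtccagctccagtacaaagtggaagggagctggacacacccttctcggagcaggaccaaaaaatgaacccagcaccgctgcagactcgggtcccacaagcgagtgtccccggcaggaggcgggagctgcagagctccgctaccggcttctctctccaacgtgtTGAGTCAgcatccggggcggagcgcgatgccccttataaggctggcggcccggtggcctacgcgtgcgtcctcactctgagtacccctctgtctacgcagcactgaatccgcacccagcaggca

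Cat, catalase, which breaks down hydrogen peroxide in peroxisomes, lay on the positive side. It read 1.98, -0.77 and 1.94 on replicates 1, 2 and 4 and held no value on replicate 3. Its block difference of 2.98 was the largest of all features tested. The fitted ratio of 0.55 (SE 0.13, adjusted p = 0.0365) thus rests on 3 arrays of which 1 had the opposite sign, and it missed the threshold (adjusted p = 0.0663) in the fit without replicate 3, in which its own values were the same.

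The other glutathione transferases did not pass. Gstm2 stood at 0.42 (SE 0.13, adjusted p = 0.0871). Of its 2 clones, the one measured on 4 arrays stood at 0.15 alone. Gstm1 had a ratio of 0.01 (SE 0.11, adjusted p = 0.976) and the microsomal Mgst1 one of -0.29 (SE 0.14, adjusted p = 0.394). Gpx1, the glutathione peroxidase of the cytosol, stood at -0.27 (SE 0.11, adjusted p = 0.242), with clones at -0.43 and -0.11. The peroxiredoxins Prdx1 and Prdx2 stood at 0.11 (SE 0.10, adjusted p = 0.775) and -0.11 (SE 0.09, adjusted p = 0.727). Among peroxisomal genes, 3 were tested. Nudt7, which hydrolyses coenzyme A in peroxisomes, read -0.55, -0.73 and -0.48 on replicates 1, 2 and 4, close together and all negative. Its fitted ratio was -0.63 (SE 0.12, adjusted p = 0.00999), and its block difference was small (0.24). Scp2, a sterol carrier, stood at -0.04 with a block difference of 2.19. Gstp1, Nudt7 and Serpina1e are known to be higher in male than in female mouse liver, and these 3 were all of the tested genes of the male-biased list. Gstp1 and Nudt7 had negative ratios and Serpina1e a positive one, and Xist, the single tested gene of the female-biased list, stood at -0.02 (SE 0.14, adjusted p = 0.971). The sex of the pooled mice is not given in the sources used here, and its part in these ratios was not tested.

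Of the iron handling list, 5 of 32 genes were tested, all 5 ratios were negative (median -0.12), and 1 passed. Over all 1711 features tested, 37.1% had a positive ratio, so negative ratios were the more common in general. Ftl1, the light chain of ferritin, which stores iron, was measured by 6 clones and averaged 0.03, -0.95, -0.89 and 0.31 on the 4 arrays. The second-block arrays were strongly negative and the first-block arrays near or above 0. The fitted ratio was -0.38 (SE 0.07, adjusted p = 0.00915), a 1.30-fold size. Fitted apart, the 6 clones ran from -0.52 to -0.19, all negative, and 3 of them passed. Fth1, the heavy chain, read -0.21, -0.14 and -0.09 on replicates 1, 2 and 4 and had a ratio of -0.19 (SE 0.10, adjusted p = 0.529).

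The remaining tested genes of the iron list stood near 0. Tfrc, the receptor for transferrin, stood at -0.12 (SE 0.07, adjusted p = 0.589), the metal importer Slc39a14 at -0.12 (SE 0.10, adjusted p = 0.771) and lactoferrin (Ltf) at -0.02 (SE 0.08, adjusted p = 0.962). For heme, 1 of 9 synthesis genes and 3 of 18 breakdown and uptake genes were tested; heme oxygenase was not among them. Hebp1, which binds heme in the cytosol, read 0.97, -0.05, 1.16 and 0.84. Only replicate 2 was not positive. Its ratio of 0.73 (SE 0.15, adjusted p = 0.013) was 0.44 without replicate 3 (adjusted p = 0.0287). Urod of heme synthesis stood at -0.01 (SE 0.07, adjusted p = 0.97) and Pgrmc1, a membrane protein that binds heme, at -0.11 (SE 0.11, adjusted p = 0.818). The metallothioneins, which bind zinc and copper and respond to metals and acute-phase signals, were close to 0: Mt1 stood at -0.08 (SE 0.07, adjusted p = 0.803) and Mt2 at 0.03 (SE 0.08, adjusted p = 0.943).

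**Figure D3:**
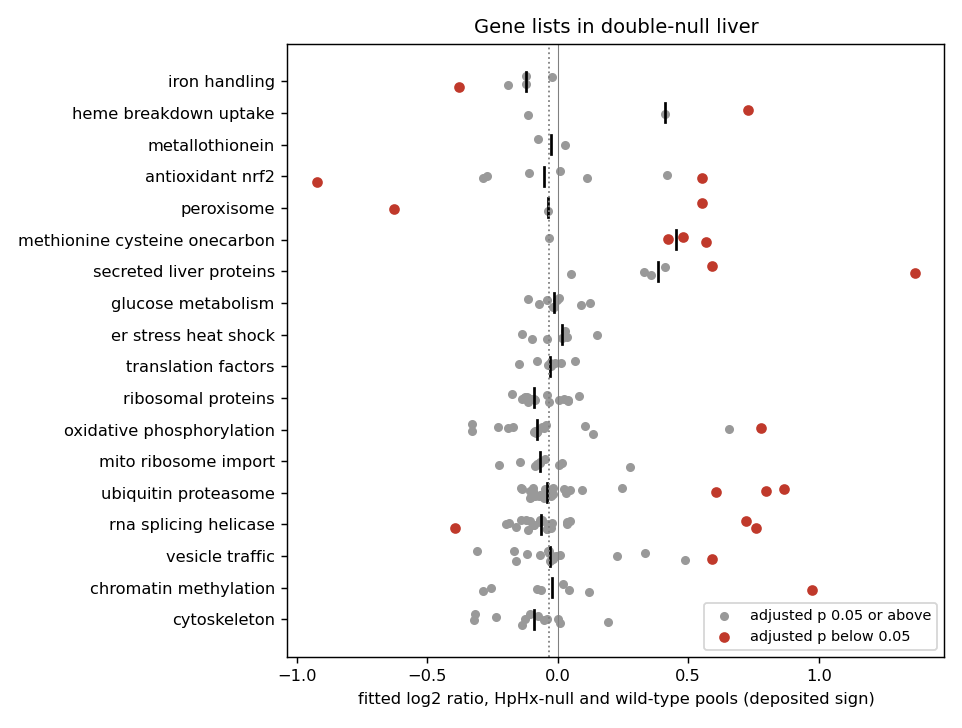
Each row is a gene list and each point a tested member, with its fitted log2 ratio on the horizontal axis; red points passed the threshold, black bars are list medians and the dotted line is the median of all features (-0.03). The points of glucose metabolism, chaperones, translation factors and ribosomal proteins cluster at 0 with no red point, whereas the methionine and cysteine list has 3 of 4 points in red between 0.42 and 0.57.

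Other positive genes had similar values in both blocks. Rbbp5, a subunit of histone methyltransferase complexes of the MLL family, read 0.70, 0.66, 1.25 and 1.27. All 4 arrays were clearly positive, and the block difference was 0.14. At 0.97 (SE 0.14, adjusted p = 0.00496) it had the second largest ratio among named genes, 1.96-fold in size. It was the only call among 8 tested genes of the chromatin list, whose median was -0.02.

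Atp5md, a small subunit of ATP synthase, read 0.57, 0.65, 1.06 and 0.83, again all positive and highest on replicate 3. It had a ratio of 0.78 (SE 0.12, adjusted p = 0.00524) and was the only call among 18 tested genes of oxidative phosphorylation, of which 14 had negative ratios (median -0.08). Over all features tested, 37.1% had a positive ratio. Nfatc4, a transcription factor activated by calcineurin, read 0.74, 0.81, 1.18 and 0.60, with a ratio of 0.83 (SE 0.13, adjusted p = 0.00637). Ak4, a mitochondrial adenylate kinase, read 0.70, 0.38, 1.42 and 0.72. Replicate 3 was the highest, and the ratio of 0.80 (SE 0.13, adjusted p = 0.00637) was 0.57 without it (adjusted p = 0.0184). Tnk2, a tyrosine kinase that binds Cdc42, read 0.52, 0.66, 1.01 and 0.73 and had a ratio of 0.73 (SE 0.15, adjusted p = 0.0127). Taf1d, of the promoter factor of RNA polymerase I, had a ratio of 0.72 (SE 0.16, adjusted p = 0.024), and Polr2h, a subunit shared by the RNA polymerases, of 0.76 (SE 0.18, adjusted p = 0.0295). For Polr2h replicate 3 stood at 1.49 and the other arrays at 0.26 to 0.70, and without it the ratio was 0.43 (adjusted p = 0.0843).

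Of the ubiquitin and proteasome list, 3 of 25 tested genes passed, all positive, against 5.38% of all features tested. The list's median was -0.04. Ttc3, a ubiquitin ligase, read 1.03, 0.26, 1.30 and 0.87, all positive, and had a ratio of 0.86 (SE 0.14, adjusted p = 0.00637). Anapc7 and Anapc4 belong to the anaphase-promoting complex, a ubiquitin ligase of the cell cycle. Anapc7 read 0.95, 0.65, 1.30 and 0.30 with a ratio of 0.80 (SE 0.16, adjusted p = 0.0116), and Anapc4 read 0.28, 1.0 and 0.16 on replicates 1, 2 and 4 with a ratio of 0.61 (SE 0.15, adjusted p = 0.0428). Anapc4 was thus highest on the array of the second block, opposite to Serpina1e or Cat. Without replicate 3 only Ttc3 passed of the 3 (adjusted p = 0.0184), with 0.0808 for Anapc7 and 0.0726 for Anapc4. The own values of Anapc4 were the same in that fit.

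Of 25 tested genes of RNA splicing and RNA helicases, 2 were called positive and 1 negative, and 20 ratios were negative (median -0.06). Over all features tested, 5.38% passed and 37.1% had a positive ratio. Ddx1, an RNA helicase, read 0.70, 0.48, 1.15 and 0.56, all positive, with a ratio of 0.72 (SE 0.12, adjusted p = 0.00637). Rbm12b1, an RNA-binding protein, read 0.16, 1.40 and 0.07 on replicates 1, 2 and 4, so that its ratio of 0.76 (SE 0.14, adjusted p = 0.0115) came with a block difference of -1.29. Prpf38b, a pre-mRNA splicing factor, held no value on replicate 2 and read -1.14, 0.27 and -0.96 on replicates 1, 3 and 4. Its sign on the single array of the second block was opposite to the other 2. The ratio of -0.39 (SE 0.09, adjusted p = 0.0348) did not pass without replicate 3 (-0.40, adjusted p = 0.207).

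Of the other positive genes named, Prex2, an activator of the GTPase Rac, read 1.66, 0.05, 0.49 and 1.55, with the first block far above the second, and had a ratio of 0.94 (SE 0.19, adjusted p = 0.0148). Npc1, which moves cholesterol out of lysosomes, read 1.07, 0.17 and 1.06 on replicates 1, 2 and 3 and had a ratio of 0.86 (SE 0.16, adjusted p = 0.00999). Pip4p1, a phosphoinositide phosphatase, had a ratio of 0.74 (SE 0.19, adjusted p = 0.0377) on the same 3 arrays, and it fell to 0.50 without replicate 3 (adjusted p = 0.287). Prxl2a, a peroxiredoxin-like protein, read 0.05, 1.29, 1.38 and 0.24. Here the second block was the higher one, and the ratio was 0.74 (SE 0.12, adjusted p = 0.00637). Mtfr1l, a regulator of mitochondrial shape, had a ratio of 0.70 (SE 0.15, adjusted p = 0.0188), or 0.46 without replicate 3 (adjusted p = 0.092). Smap1, which acts on the GTPase Arf6 in clathrin-coated uptake, was the single call among 17 tested genes of vesicle traffic and read 0.49, 0.74 and 0.44 on replicates 1, 2 and 4. Its ratio was 0.59 (SE 0.11, adjusted p = 0.00939). A further 11 named genes passed with ratios from 0.50 to 0.70.

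Several lists had no call, which for their size lies close to the 5.38% called over all features. None of 17 ribosomal proteins passed (0, median -0.09, range -0.17 to 0.08), nor of 8 translation factors (0, median -0.03), 7 chaperones of ER stress and heat shock (0, median 0.02), 9 genes of glucose metabolism (0, median -0.01), 10 of mitochondrial ribosomes and import (0, median -0.07) or 12 of the cytoskeleton (0, median -0.09). The 1 tested gene of the interferon and inflammation list, Rela, stood at -0.10. The same holds for the few genes tested of fatty acid oxidation (0 of 2), lipid synthesis and transport (0 of 4) and cell cycle and p53 (0 of 1). The lists of the urea cycle, acute phase, circadian clock and cytochrome P450 enzymes had 0 tested genes and were not analysed here.

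Markers of the cell types in liver were sparse. Of 27 hepatocyte markers 7 were tested, all with positive ratios (0.05 to 1.37, median 0.41), and 3 passed: Serpina1e, Mat1a and Bhmt. Over all features tested, 37.1% had a positive ratio and 5.38% passed. The block differences of the 7 hepatocyte markers, with a median of 1.51, were large too. The part of a change in hepatocyte RNA as a whole in the calls among secreted and methionine genes was not tested. Of 25 macrophage markers 2 were tested. Fcgr1, the high-affinity receptor for IgG, read 0.10, 0.57, 1.05 and 0.36, all positive and highest on replicate 3, and had a ratio of 0.52 (SE 0.11, adjusted p = 0.0151), or 0.37 without replicate 3 (adjusted p = 0.109). Fcer1g, the signalling chain shared by Fc receptors, stood at -0.08 (SE 0.12, adjusted p = 0.899). The neutrophil list had 0 of 2 called (-0.02 for both Ltf and Csf3r), the stellate list 0 of 2 (Lum at 0.06, Sparc at 0.09) and the erythroid list 0 of 1 (Tfrc). Markers of lymphocytes, endothelium, bile ducts, pancreas and muscle had 0 tested genes. One annotation entry names several genes, alpha-globin among them. Of its 12 tested clones 4 passed at ratios from 0.43 to 0.56, against 5.38% of all features tested. The median of the 12 was 0.41. The median of these clones was 1.10 in Hx-null and -0.12 in Hp-null.

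**Figure D4:**
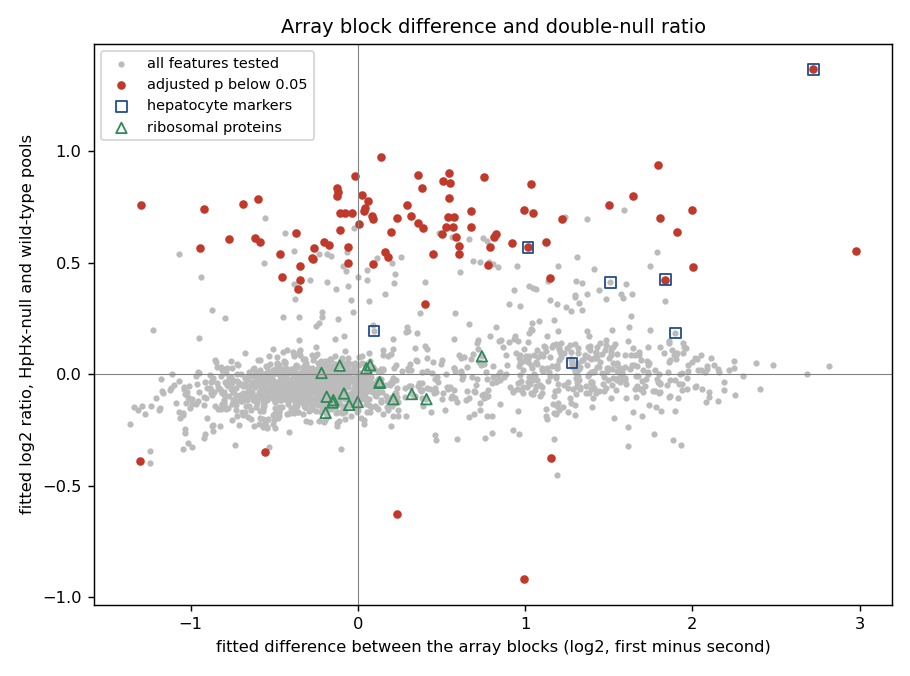
Each grey point is a feature tested, with the fitted difference between the array blocks on the horizontal axis (log2, first minus second block) and the fitted HpHx-null ratio on the vertical axis. Red points passed the threshold and spread over block differences from below -1 to 2.98; the blue squares of hepatocyte markers reach far to the right (median 1.51), whereas the green triangles of ribosomal proteins centre on 0.

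The single nulls were measured against the same kind of reference, taken here as 1 wild-type pool because no label names a second. Their ratios may therefore share its deviations and are given side by side only. For the 87 positive features the median ratio was 0.66 in HpHx-null, 0.36 in Hx-null and 0.25 in Hp-null, against medians of -0.03, -0.02 and -0.01 over all features tested. These features were chosen by their HpHx-null values, which favours the first of the 3 numbers. Serpina1e stood at 1.37 in HpHx-null, 0.66 in Hx-null and 0.53 in Hp-null. Gstp1 had ratios of -0.92, -0.86 and -0.59 in the same order, and Nudt7 of -0.63, -0.71 and -0.36. Both were negative in all 3 nulls. Mat1a had 0.57, 0.49 and -0.33, and Fcgr1 0.52, 0.43 and -0.08, but neither passed in Hx-null or Hp-null, and their differences between HpHx-null and Hp-null did not pass (adjusted p = 0.107 for Mat1a and 0.182 for Fcgr1). Bhmt stood at 0.42, 0.66 and 0.18, Cdo1 at 0.48, 0.31 and 0.64, Cat at 0.55, 0.23 and 0.43, and Hebp1 at 0.73, 0.37 and 0.45.

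**Figure D5:**
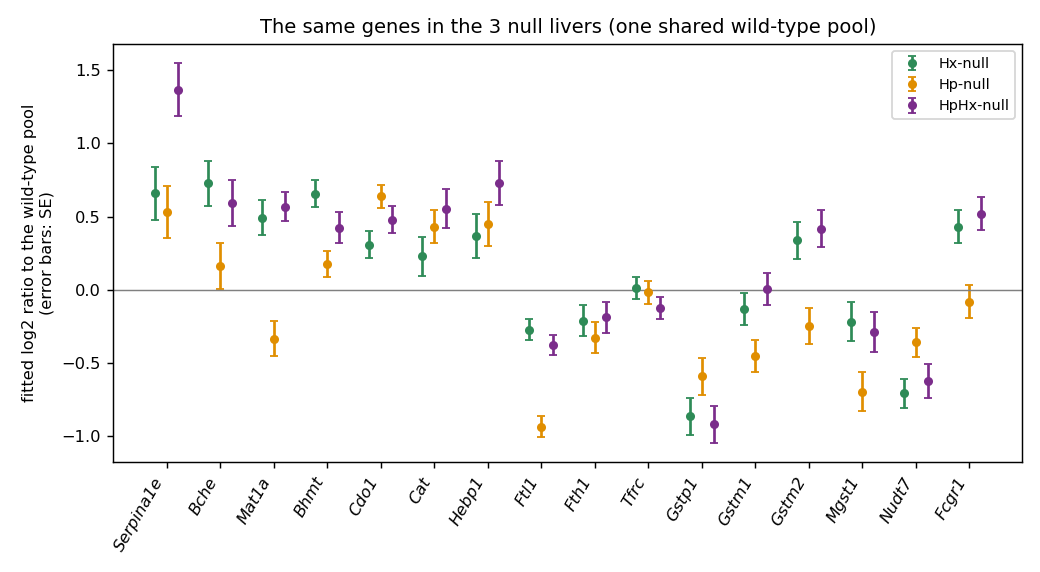
Fitted log2 ratios to the wild-type pool (vertical axis, deposited sign, error bars are SE) of 16 genes in Hx-null, Hp-null and HpHx-null liver. Ftl1 is lowest in Hp-null (-0.94), Serpina1e is highest in HpHx-null (1.37), and Gstp1 and Nudt7 lie below 0 in all 3 genotypes.

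The differences between genotypes were also tested. Set against Hp-null, the double null differed in 0 of 1690 features (0%) by limma. An unadjusted p under 0.05 was found for 210, and the smallest adjusted p was 0.107, shared by Ftl1 (0.56 higher in signed ratio in HpHx-null) and Mat1a (0.90 higher). With the replicate number as a further block, 21 features passed, all higher in signed ratio in HpHx-null. Set against Hx-null, it differed in 3 of 1654 features (0.181%), all lower in signed ratio in HpHx-null, by 1.12, 0.94 and 0.94. Of these, 2 were clones of that alpha-globin entry and 1 had no symbol. No feature passed (0) without Hx-null replicate 1, Hp-null replicate 2 or HpHx-null replicate 1 or 2. For Serpina1e the difference from Hx-null was 0.71 (adjusted p = 0.85) and from Hp-null 0.84 (adjusted p = 0.222), and neither difference passed after adjustment over all features. By limma the unadjusted p was 0.0163 (SE 0.26) and 0.00639 (SE 0.26).

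The ratio in HpHx-null departed from the sum of both single-null ratios in 1 of 1646 features (0.0608%). This was Ftl1, at -0.38 against single-null ratios of -0.27 and -0.94. The departure was 0.83 (SE 0.12, adjusted p = 0.015) in the positive direction. The reference pool does not cancel in this contrast. No feature passed (0) when Hx-null replicate 4, Hp-null replicate 1 or 2, or HpHx-null replicate 2, 3 or 4 was left out.

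Because the direction was not settled, the arrays were also turned in sign. With the sign following the labelled dye of the null pool, 0 of 1711 features passed in limma and 1 had an unadjusted p under 0.05, and Serpina1e stood at -0.26 and Gstp1 at -0.27. Turned by the block, so that the structure shared by all arrays is read as a difference between pools, 765 features passed, 427 positive and 338 negative. Here the first-block arrays kept their sign and the second-block arrays were reversed. That choice was arbitrary, and the opposite one would reverse every sign given for this turn. The order of genes then changed. Cat (1.43, adjusted p = 5.83e-05), Serpina1e (1.21, adjusted p = 0.00253) and Cdo1 (1.06, adjusted p = 2.73e-05) stayed positive and were among the 6 largest, with the urea transporter Slc14a1 (1.46), Scp2 (1.04) and Pdxdc1 (1.03), which are named after their values were seen. Gstp1 then stood at 0.31 (adjusted p = 0.0673), Nudt7 at 0.08 (adjusted p = 0.662) and Ftl1 at 0.54 (adjusted p = 0.0157), and genes with like values on all arrays lay near 0, such as Rbbp5 at 0.015 and Atp5md at -0.08. With this choice of block, Serpina1e, Cat, Cdo1 and Bhmt had positive ratios as deposited and turned by the block. Turned by the labelled dyes, their ratios were negative. A sign shared between the deposited and block-turned values says nothing about direction, because the opposite choice would undo it. The most negative ratios turned by the block were those of Srek1ip1 (-0.82), Bub1b (-0.75), Vps37a (-0.74), Chpf2 (-0.72), Prpf38b (-0.72) and Smarcal1 (-0.72).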

How the data were processed

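For each of 31200 spots the authors deposited 1 log ratio per array (12 arrays), treated as log2; the log base, normalization, filter and direction have no statement in the labels or header. Per the labels' protocols, total RNA was labelled directly with Cy3 or Cy5 by oligo(dT) priming, with dyes swapped. Arrays were centred on their medians, duplicate spots averaged (correlation 0.90 to 0.98), and 2151 of 15600 clones held a value: 1017 with 1 symbol, 65 with several (never named) and 1069 with none. Symbols were updated through RefSeq (GRCm38.p6). The model (limma 3.58.1, R 4.3.3; robust variance moderation) had 1 coefficient per genotype and the array block, over all 12 arrays; SE is that of the fit. Fewer than 3 arrays left a feature untested. The number of arrays limits the precision. The fit was tested on simulated data. Named were up to 18 largest positive and 10 largest negative calls with a symbol (4 negative ones existed), called list members, and tested iron, heme, metallothionein and antioxidant genes. Members, lists and block were chosen with earlier results of these data known. Alternatives covered array term, direction, scaling, filter, variance, clones, numbering and arrays left out. Promoters were matched for 40 of 46 named genes.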

Additional observations from a re-analysis of the deposited data

Results flagged for a closer look

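For Polr2h, a subunit shared by the RNA polymerases, replicate 3 of HpHx-null lay far from the other 3 arrays, at 1.63 with the block difference taken out. It was the only 1 of 32 named genes measured on 4 arrays with such a gap; chance alone gives about 1 in 20 groups. The HpHx-null ratio of Ftl1 lay 0.83 (SE 0.12, limma adjusted p = 0.015) above the sum of both single-null ratios, while its differences from Hx-null (adjusted p = 0.996) and Hp-null (adjusted p = 0.107) did not pass. The deposited ratios of HpHx-null and Hx-null differed in 3 features, none with a single gene symbol.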

How the results depend on the processing

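Over the alternatives, the count of 92 features in HpHx-null against wild-type stayed between 90 and 134 with the loading in place of the block (90), the replicate block added (134), values as deposited (116), quantile scaling (103), 2 of 4 arrays required (93), no robust option (92), clones kept apart (98) or direct numbering (90), and between 84 and 96 without any 1 array of the single nulls. Direct numbering gives other names to the same clone values, and 20 of its 90 calls were features of the main 92. The count was 0 with the labelled dye, 7 with no array term, 0 without moderation, 55 on features held by all 12 arrays (1129 tested), 40 with the HpHx-null arrays alone, 0 turned by the labelled dye and 765 turned by the block. Left without 1 array at a time it ran from 33 to 96, with 57, 67, 33 and 54 without HpHx-null replicates 1 to 4. In the latter fits at least 2 HpHx-null arrays were required, and 1773, 1892, 1868 and 1729 features were tested. Without replicate 3, 15 of the 31 called genes named by the rule passed. The cause was not tested.

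With genotype and array block removed, same-numbered arrays of different genotypes correlated at -0.25 to 0.56, above 0.1 in 6 of 12 pairs. The 4 pairs of Hp-null with HpHx-null were all above 0.1 (0.12 to 0.56), but with genotype alone removed they ran from -0.86 to -0.63; no label says what the numbers share. With the replicate block added, 9 features differed between HpHx-null and Hx-null, 21 between HpHx-null and Hp-null and 7 from the sum. Against Hx-null the count of 3 became 0 with the labelled dye, no array term, either turn, quantile scaling, all 12 arrays or no moderation, 1 with the 2 genotypes alone and 7 as deposited; without 1 array it ran from 0 to 5. Against Hp-null it was 1 on features of all 12 arrays and 0 to 6 without 1 array (6 without HpHx-null replicate 1). From the sum the count of 1 became 0 with the labelled dye, the loading, no array term, turned by the labelled dye, as deposited or quantile-scaled, 2 with clones kept apart or direct numbering and 499 turned by the block; without 1 array it ran from 0 to 2.

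Among the 46 named genes, ratios changed sign when turned by the labelled dyes for Serpina1e -0.26, Rbbp5 -0.29, Prex2 -0.083, Ttc3 -0.22, Npc1 -0.086, Nfatc4 -0.059, Ak4 -0.27, Atp5md -0.17, Polr2h -0.28, Prxl2a -0.069, Tnk2 -0.14, Hebp1 -0.27, Ddx1 -0.13, Taf1d -0.12, Mtfr1l -0.16, Cat -0.44, Cdo1 -0.39, Fcgr1 -0.19, Glud1 -0.31, Bhmt -0.32, Bche -0.089, Mat1a -0.17, Tfrc 0.053, Ltf 0.00061, Urod 0.086, Mt1 0.076, Gstm1 -0.077, Gstm2 -0.15, Prdx1 -0.028 and Prdx2 0.0053, and when turned by the block for Nfatc4 -0.16, Ak4 -0.096, Anapc7 -0.18, Atp5md -0.076, Polr2h -0.11, Rbm12b1 -0.61, Prxl2a -0.60, Tnk2 -0.11, Ddx1 -0.093, Taf1d -0.21, Gstp1 0.31, Nudt7 0.085, Ftl1 0.54, Smap1 -0.13, Fcgr1 -0.29, Anapc4 -0.41, Fth1 0.019, Pgrmc1 0.19, Mt2 -0.10, Mgst1 0.22, Prdx2 0.11 and Gpx1 0.41. The signs turned by the block rest on the arbitrary choice to reverse the second block, so the genes listed for that turn depend on it. By direct numbering other clones carry the names, and Anapc7 then stood at -0.040, Mtfr1l at -0.18, Tfrc at 0.049, Slc39a14 at 0.032 and Prdx1 at -0.17. Genes near 0 crossed it elsewhere: Urod was 0.013 and Gstm1 -0.10 with the loading, Mt2 was -0.0079 and Gstm1 -0.027 as deposited, and Gstm1 was -0.079 with quantile scaling. Without 1 array at a time Gstm1 ran from -0.069 to 0.059, Ltf from -0.061 to 0.063, Mt2 from -0.028 to 0.058, Pgrmc1 from -0.20 to 0.012 and Urod from -0.076 to 0.027. No other named gene changed sign under the alternatives run. Spots without a value limit the gene lists, and unmeasured genes were not analysed here.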
